A study of Homo sapiens with 24 samples.

Results

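Collagen genes were taken as all genes whose symbol consists of COL, a type number, A and a chain number. Probes were named through the RefSeq transcript given for them in the array files, and 44 of the 24847 gene symbols on the array were collagens, measured by 58 of 58201 probes. They comprised 11 fibrillar collagens, 6 basement membrane collagens of type IV and 27 other collagens. RNA came from U251 cells, an established human glioblastoma line, so each sample was a culture of 1 line without vessels or stroma. The cells received the vehicle DMSO (0.1% by the labels), G-1 at the dose called IC50 (the concentration named after its inhibition of growth) or G-1 at 1 µM, for 24 h or 72 h each. The methods of the study state a lower DMSO concentration than the labels, and which was used is not settled here. G-1 is an agonist of GPER, a membrane receptor for estrogens. All 6 groups were grown without phenol red and kept for 24 h in charcoal-stripped serum, which removes steroid hormones, before exposure. Each group had 4 biological replicates, and each was read on 1 Agilent array with a single dye, 24 arrays in all.

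Collagens are helical proteins assembled from several alpha chains, each encoded by its own gene. Fibrillar collagens pack into the fibres that give connective tissue its tensile strength, type IV collagens form the sheet-like network of basement membranes, and FACIT collagens (fibril-associated collagens with interrupted triple helices) bind to the surface of fibrils. Transmembrane collagens are anchored in the plasma membrane, with the collagenous part outside the cell. Normal brain tissue holds little fibrillar collagen, and its collagens lie mainly in vessel walls and meninges, whereas glioblastoma cells in culture are known to express several collagen chains. In the endoplasmic reticulum the chains are hydroxylated, glycosylated and folded with the help of dedicated enzymes and chaperones, and outside the cell lysyl oxidases cross-link them.

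The type IV genes lie as neighbouring pairs that are read in opposite directions from a shared upstream region. Each gene had its own probe here, but COL4A3 was detected on no array, so its pair could not be followed in both members. The bases between the first transcribed bases of COL4A1 and COL4A2 and those between COL4A3 and COL4A4 are shown because members of one pair differed in detection or in their response to G-1. For COL4A5, the 250 bases before its start are shown, and the start of COL4A6 lies 379 bases away. The 250 bases before the starts of COL13A1 and COL17A1 are shown because these 2 transmembrane collagens had the largest increases. The sequences are those of RefSeq on GRCh38.p14, 5′ to 3′ on the strand given, and capitals mark 3 motifs searched on both strands. The CCAAT box was searched by these letters, the GC box as GGGCGG, and the TATA box as TATAAA.
COL4A1-COL4A2 interval, chr13:110307158-110307283, plus strand: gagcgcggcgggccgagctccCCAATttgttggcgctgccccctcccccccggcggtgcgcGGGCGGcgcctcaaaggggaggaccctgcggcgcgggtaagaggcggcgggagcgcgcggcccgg
COL4A3-COL4A4 interval, chr2:227164489-227164623, plus strand: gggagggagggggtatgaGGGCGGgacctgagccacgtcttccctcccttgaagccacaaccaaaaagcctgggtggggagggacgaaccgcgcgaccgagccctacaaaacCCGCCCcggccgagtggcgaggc
COL4A5, chrX:108439588-108439837, plus strand: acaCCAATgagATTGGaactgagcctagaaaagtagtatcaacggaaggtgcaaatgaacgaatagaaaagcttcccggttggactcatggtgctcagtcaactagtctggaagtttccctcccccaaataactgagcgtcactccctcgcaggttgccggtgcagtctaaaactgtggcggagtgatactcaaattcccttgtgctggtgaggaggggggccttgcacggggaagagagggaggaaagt
COL13A1, chr10:69801656-69801905, plus strand: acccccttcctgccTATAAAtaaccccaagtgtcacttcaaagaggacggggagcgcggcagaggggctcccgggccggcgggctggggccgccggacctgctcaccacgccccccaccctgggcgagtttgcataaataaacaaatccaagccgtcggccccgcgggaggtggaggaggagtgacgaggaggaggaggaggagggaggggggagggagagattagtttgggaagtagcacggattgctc
COL17A1, chr10:104085881-104086130, minus strand: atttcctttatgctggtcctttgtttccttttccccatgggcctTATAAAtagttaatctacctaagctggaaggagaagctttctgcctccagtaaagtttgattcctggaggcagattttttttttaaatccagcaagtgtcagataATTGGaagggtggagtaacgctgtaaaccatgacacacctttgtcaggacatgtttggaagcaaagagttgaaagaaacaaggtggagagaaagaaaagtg

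The COL4A1-COL4A2 interval of 126 bases had a G and C content of 80.2% and held 1 CCAAT box and 1 GC box. The COL4A3-COL4A4 interval of 135 bases had a content of 68.1% and held 2 GC boxes. Among all 34943 promoters of the table, a window of 126 bases held a CCAAT box in 21.1% and a GC box in 34.5%, and a window of 135 bases held a GC box in 35.5%. The COL4A5 sequence held 2 CCAAT boxes, the COL13A1 sequence 1 TATA box, and the COL17A1 sequence 1 TATA box and 1 CCAAT box. Of all promoters, 32.0% held a CCAAT box and 10.8% a TATA box in 250 bases. The TATAAA letters began 236 bases before the start in COL13A1 and 206 bases before it in COL17A1. Over the 32 of 44 collagens with an entry in the table, 8 held a CCAAT box, 17 a GC box and 5 a TATA box in 250 bases, where 42.5% of all promoters held a GC box. For COL4A4 that count reads the table's own start, which lies 283 bases inside the outermost base from which the interval was measured. No marked motif overlapped another, and these matches describe letters in a window, not binding sites.

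All values are log2 signals of a probe, scaled to its array's 75th percentile, so they compare samples for 1 probe and set no order between genes. The arrays lay on 3 slides of 8. The third slide, scanned in a second session, held the 8 arrays with 1 µM and no others, and the DMSO and G-1 IC50 arrays shared the other 2. Between 41.1% and 44.5% of spots exceeded background clearly on the first 2 slides, and between 38.0% and 40.7% on the third. Slide, session and the 1 µM dose cannot be told apart in any comparison made within 1 duration. A constant difference of this kind cancels in the change between durations, and the 2 groups of G-1 1 µM share a slide. In 2 groups, the IC50 dose for 24 h and 1 µM for 72 h, a characteristic contradicts the duration in the title, and the titles were followed. All 7 glioblastoma or astroglial markers, GFAP among them, were above background on all 24 arrays. So were 4 of 8 fibroblast or mesenchymal markers (ACTA2, FAP, PDGFRA and THY1), 2 of 5 epithelial (KRT8 and KRT18), 1 of 5 endothelial (KDR) and 1 of 3 measured immune markers (CD14). Of the same lists, DCN and LUM, EPCAM and CDH1, PECAM1 and TEK, and PTPRC and AIF1 were above background on no array, as were all 3 Schwann cell markers. The replicates are labelled as biological and independent, with no culture or day named, and p-values measure the spread between these samples.

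Of the 44 collagen genes, 21 were well above background on all 24 arrays and 16 on none. The fibrillar class had 5 of 11 genes on all arrays (COL11A2, COL1A2, COL27A1, COL5A1 and COL5A2) and 4 on none. Of the 6 type IV genes, 4 were above background on all arrays (COL4A1, COL4A2, COL4A5 and COL4A6), COL4A4 on 23, and COL4A3 on none. Among the other collagens, 12 of 27 were detected on all arrays and 11 on none. All 6 detected FACIT collagens were on all 24 arrays. The genes on no array were COL2A1, COL3A1, COL5A3 and COL11A1 of the fibrillar class, COL4A3, and COL6A3, COL6A5, COL6A6, COL9A1, COL19A1, COL20A1, COL22A1, COL23A1, COL25A1, COL26A1 and COL28A1.

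Several collagens were detected without the partner chain with which they usually assemble. COL1A2, the alpha 2 chain of type I collagen, was above background on all 24 arrays, whereas COL1A1, its alpha 1 chain, was above background on 1 array only, of DMSO 24 h. COL6A1 and COL6A2, chains of the beaded filaments of type VI, were on all 24 arrays and COL6A3, the third chain, on none. COL9A2 and COL9A3 of type IX were detected throughout and COL9A1 on none. Each gene was read by its own probes, and a probe that was not well above background shows only that no signal was detected by it.

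Testing asked for a signal well above background in every replicate of some group, which 34 collagen probes of 25 genes passed: 6 fibrillar, 5 of type IV and 14 others. A probe could pass through the group in which it was high, and 4 of these 25 genes were not on all 24 arrays: COL17A1, COL8A2, COL24A1 and COL4A4. COL10A1, COL15A1 and COL1A1 were detected on some arrays but not tested. COL15A1, a multiplexin, was above background on 3 of 4 arrays of G-1 1 µM 72 h and on no other array. COL10A1, the collagen of hypertrophic cartilage, was above background on 7 of 24 arrays, at most 2 in a group.

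At G-1 IC50 for 24 h, no collagen gene was called, a call being an adjusted p under 0.05 by limma, with Benjamini-Hochberg adjustment over all 22970 tested probes, and a change of more than 2-fold. Of all 14235 tested genes, 0.0632% were called and 0.246% had an adjusted p under 0.05. Of the 25 collagens, 2 had an unadjusted p under 0.05, COL13A1 and COL9A3, with a smallest adjusted p of 0.782, and the methods' t-test on the same values called 0. The share of all genes at an unadjusted p was not taken for any comparison. Such counts, here and for the gene lists below, are therefore not read as results. The median change of the collagens was 0.00 on the log2 scale, and that of all genes -0.01.

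At G-1 IC50 for 72 h, no collagen was called either, against 0.133% of all genes, and the methods' t-test called 0. Below the 2-fold limit, COL13A1 and COL9A3 rose and COL18A1 fell. In all, 0.457% of genes had an adjusted p under 0.05 with a rise and 0.52% with a fall. By an unadjusted p under 0.05 the collagens were 8, a count without a share of all genes and not read as a result. COL13A1, a transmembrane collagen found at cell adhesions and neuromuscular junctions, read 0.15, 0.47, 0.05 and 0.08 in DMSO 72 h and 0.85, 1.36, 0.59 and 1.04 in G-1 IC50 72 h, all higher than in DMSO. Its change was 0.77 ± 0.16 (log2 ± SE, adjusted p = 0.0204). COL9A3, a FACIT collagen of cartilage, read 2.49, 2.63, 2.35 and 2.30 in DMSO 72 h and 3.00, 3.14, 3.01 and 2.74 in G-1 IC50 72 h, again without overlap, a change of 0.53 ± 0.10 (adjusted p = 0.0111). COL18A1, a multiplexin whose C-terminal fragment is endostatin, read between 5.74 and 5.97 in DMSO and between 5.46 and 5.68 in G-1 IC50, and fell by 0.35 ± 0.07 (adjusted p = 0.0111). In this comparison both groups lay on the first 2 slides, and with the slide as a block the count of called collagens was again 0.

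At G-1 1 µM for 24 h, 1 collagen was called, COL16A1, a FACIT collagen of skin and other tissues, and it fell. The call came from the dimmer of its 2 probes. That probe read -1.29, -1.65, -1.16 and -1.69 in DMSO 24 h and -2.48, -2.59, -2.94 and -2.42 in G-1 1 µM 24 h, where 1 of 4 arrays was well above background, a change of -1.16 ± 0.22 (adjusted p = 0.00071), or -0.28 with normexp on the median spot signal. The brighter probe of COL16A1, on all 24 arrays, read between 2.15 and 2.34 in DMSO and between 1.70 and 1.84 in G-1 1 µM, and fell by 0.44 ± 0.09 (adjusted p = 0.0012). Among all genes, 0.611% were called higher and 1.62% lower.

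Without the fold limit, 2 collagens rose and 5 fell at G-1 1 µM for 24 h, where 22.7% of all genes rose and 12.6% fell. COL13A1 read 0.00, 0.13, 0.20 and 0.26 in DMSO 24 h, 0.18, 0.81, 0.33 and 0.67 in G-1 IC50 24 h, and 0.64, 1.17, 0.94 and 0.79 in G-1 1 µM 24 h. It rose by 0.74 ± 0.16 against DMSO (adjusted p = 0.00217). COL7A1, which forms the anchoring fibrils of skin, rose by 0.36 ± 0.13 (adjusted p = 0.0466). The genes that fell were COL12A1, COL16A1, COL18A1, COL21A1 and COL4A4. COL21A1 had the smallest fall, 0.25 on the log2 scale, COL4A4 fell by 0.62, and COL12A1 passed by its dimmer probe alone. Same-numbered replicates of these 2 groups deviated together (r = 0.166 to 0.281 in all 4 pairs). With the replicate block, 6 collagens were higher and 6 lower, against 25.3% and 14.9% of all genes, COL11A2, COL4A1, COL4A2 and COL6A1 being added to the higher and COL4A5 to the lower ones. The count of called collagens was again 1. In the fit without the block, the median change of the 25 collagens was -0.06, with 13 of them below 0, against 0.04 over all genes.

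At G-1 1 µM for 72 h, 10 of the 25 tested collagens were called. COL13A1, COL17A1 and COL4A1 were higher, and COL12A1, COL14A1, COL24A1, COL4A4, COL4A5, COL8A2 and COL9A2 were lower. COL17A1 is in this count, and in the one by the adjusted p alone, but it entered the test only through this group. Its call is therefore no support for a rise. In all, 6.03% of genes were called higher and 8.66% lower. With the adjusted p alone, 5 collagens rose (also COL27A1 and COL7A1) and 19 fell, against 38.4% and 32.6% of all genes. In this fit, without the replicate block, COL4A2 passed in neither direction. With normexp and an offset of 50, computed from the median spot signal in place of the processed signal, 3 of the 25 were called, against 807 of 14235 genes. COL12A1, COL17A1, COL24A1, COL4A1, COL4A4, COL8A2 and COL9A2 then kept their direction below the 2-fold limit. The median change of the 25 genes was -0.53 on the log2 scale, with 19 below 0, and the median of all genes was 0.03, with 48.0% below 0. In RNA from whole cultures, fewer cells that express a gene and less RNA per cell cannot be told apart.

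The median changes of the 3 classes were -0.40 for the fibrillar, -0.66 for the type IV and -0.69 for the other collagens. The class counts below stand against 6.03% of all genes called higher and 8.66% called lower. By the adjusted p alone they stand against 38.4% of all genes rising and 32.6% falling. Of 6 fibrillar genes, 1 was called, lower, and by the adjusted p alone 5 fell and 1 rose. Of 5 type IV genes, 1 was called higher and 2 lower, and by the adjusted p alone 1 rose and 3 fell. Of 14 others, 2 were called higher and 4 lower, and by the adjusted p alone 3 rose and 11 fell. Within the others, all 6 tested FACIT collagens fell. Of the transmembrane collagens, COL13A1 rose, and COL17A1 was higher but had entered the test only through the group in which it was high. No class was tested against another.

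**Figure D1:**
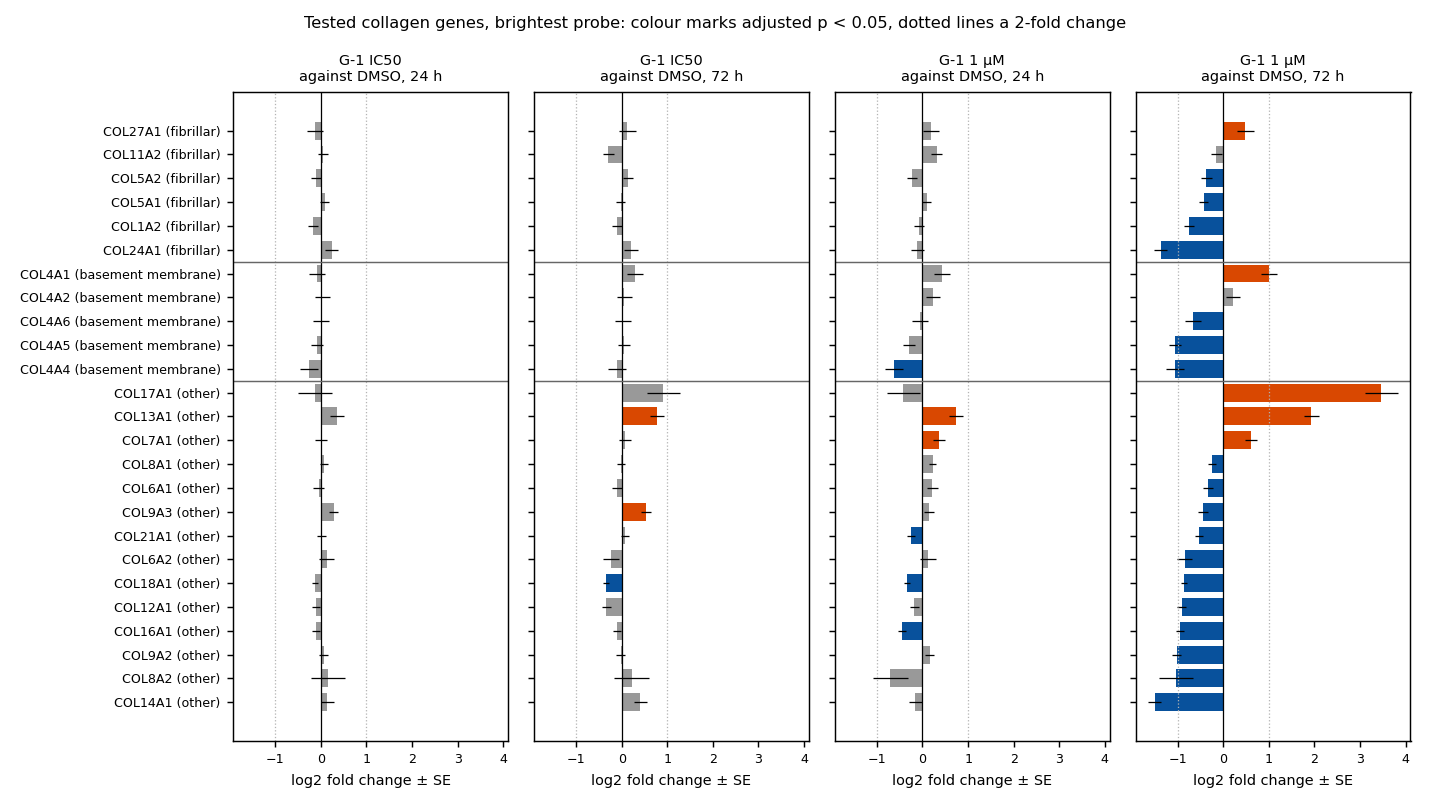
Log2 fold change against DMSO (bars, with SE) of the brightest tested probe of each of the 25 tested collagens, for both doses and both durations, ordered within the fibrillar, type IV and other classes by the change at 1 µM for 72 h. Coloured bars have an adjusted p under 0.05, and most are in the last panel, where the range is from -1.51 (COL14A1) to 3.47 (COL17A1, a group below background in DMSO).

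COL17A1, the transmembrane collagen of hemidesmosomes, which hold epithelial cells to the basement membrane, had the largest difference. It read -4.70, -5.16, -5.12 and -4.77 in DMSO 72 h and -5.47, -4.06, -3.41 and -3.16 in G-1 IC50 72 h, where no array was well above background. It read -1.26, -1.52, -1.54 and -1.57 in G-1 1 µM 72 h, where all 4 arrays were. The G-1 1 µM 72 h arrays were higher than all others. The difference was 3.49-fold against DMSO and 3.66-fold against the IC50 dose. For these folds, each array of the dimmer group was set to its lowest signal well above background, or to its own reading if higher. That signal is no detection limit of this probe, so the folds are estimates and no strict bounds. COL17A1 entered the test only through G-1 1 µM 72 h, the group in which it was high. Its call there is therefore no support for the difference, and no p-value is given. At 24 h, COL17A1 was above background on 3 arrays of DMSO, 3 of G-1 IC50 and 1 of G-1 1 µM, and its change at G-1 1 µM was -0.42 ± 0.36 (adjusted p = 0.403). Of the 5 epithelial markers, EPCAM and CDH1 were above background on no array and KRT8 and KRT18 on all 24. KRT19 fell by 1.75 ± 0.20 in this comparison (adjusted p = 2.03e-07) and KRT18 rose by 0.35 ± 0.09 (adjusted p = 0.00315), while the brighter probe of KRT8 fell by 0.44 ± 0.09 and another rose by 0.48 ± 0.11. The summed linear signal of the list was 22.5 to 26.0 in DMSO 72 h and 25.64 to 29.97 in G-1 1 µM 72 h. Their part in the COL17A1 value was not tested.

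COL13A1, the other detected transmembrane collagen, read 2.12, 2.34, 2.18 and 1.83 in G-1 1 µM 72 h, above the highest array of every other group. It rose by 1.93 ± 0.16 against DMSO 72 h (adjusted p = 2.72e-09), a fold change of 3.81. Side by side and against the same DMSO arrays, the log2 change was 0.35 ± 0.16 at the IC50 dose and 0.74 ± 0.16 at 1 µM for 24 h, and 0.77 ± 0.16 and 1.93 ± 0.16 for 72 h. COL23A1 and COL25A1, the other members of the transmembrane group, were not detected.

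Among the fibrillar collagens, COL24A1, a minor fibrillar chain of bone and cornea, fell most by the processed signal. It read -1.07, -0.76, -1.13 and -0.74 in DMSO 72 h and -2.08, -2.34, -2.56 and -2.20 in G-1 1 µM 72 h, with 3 of 4 arrays of the latter above background. The groups did not overlap, and the change was -1.37 ± 0.15 (adjusted p = 1.08e-07), or -0.49 with normexp on the median spot signal. This probe was near background at 1 µM, so the size of its fall depends on the background correction. COL1A2 read 7.35, 7.32, 7.34 and 7.49 in DMSO 72 h and 6.65, 6.32, 6.69 and 6.81 in G-1 1 µM 72 h, and fell by 0.76 ± 0.11 (adjusted p = 3.94e-06). COL5A1 and COL5A2, chains of type V collagen, which controls the diameter of type I fibrils, fell by 0.43 ± 0.10 and 0.37 ± 0.11 (adjusted p = 0.00101 and 0.00718). In each of these genes, all 4 arrays of G-1 1 µM 72 h were below the lowest DMSO array.

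The probes of some fibrillar genes disagreed. The dimmer probe of COL5A1 changed by -0.14 ± 0.09 (adjusted p = 0.198). COL27A1, a fibrillar chain of cartilage, rose by its brighter probe, 0.48 ± 0.18 (adjusted p = 0.0267), whereas its dimmer probe changed by -0.16 ± 0.12 (adjusted p = 0.229). COL11A2, whose product belongs to type XI collagen of cartilage, passed only by the dimmest of its 3 probes, and its brightest changed by -0.15 ± 0.12 (adjusted p = 0.265).

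Of the type IV pairs, COL4A1 was called and COL4A2 did not pass, while COL4A5 and COL4A6 both fell. COL4A1 read 0.76, 0.73, 0.70 and 0.37 in DMSO 72 h, 1.02, 1.03, 0.90 and 0.73 in G-1 IC50 72 h, and 1.87, 1.52, 1.51 and 1.67 in G-1 1 µM 72 h, all above DMSO. It rose by 1.00 ± 0.18 (adjusted p = 4.86e-05), at the edge of the 2-fold limit. Its value was 0.91 without DMSO 72 h replicate 4, 0.93 without G-1 1 µM 72 h replicate 1 and 0.99 without replicate 4, each of which ended the call. COL4A2, its partner across the 126-base interval, read between 5.79 and 6.13 in DMSO 72 h and between 6.07 and 6.25 in G-1 1 µM 72 h. These groups overlapped, and the change was 0.22 ± 0.16 (adjusted p = 0.232). With the replicate block, COL4A2 passed as higher by the adjusted p, as 39.5% of all genes did. Whether the changes of COL4A1 and COL4A2 differ from each other was not tested, since they come from different probes. The chains of both genes form the heterotrimer found in nearly all basement membranes.

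COL4A4 read -1.21, -1.22, -1.74 and -1.37 in DMSO 72 h and -2.01, -2.70, -2.89 and -2.18 in G-1 1 µM 72 h, without overlap, and fell by 1.06 ± 0.19 (adjusted p = 8.36e-05). COL4A3, across the 135-base interval, was not detected in any group. COL4A5 read 3.72, 3.60, 3.64 and 3.57 in DMSO 72 h and 2.63, 2.32, 2.62 and 2.73 in G-1 1 µM 72 h, and fell by 1.06 ± 0.13 (adjusted p = 5.94e-07). Without G-1 1 µM 72 h replicate 2 both missed the 2-fold limit, each with -0.97, and COL4A4 also without replicate 3, with -0.91. COL4A6, its neighbour, read 3.21, 3.23, 3.23 and 3.45 in DMSO 72 h and 2.46, 2.51, 2.86 and 2.67 in G-1 1 µM 72 h, and fell by 0.66 ± 0.17 (adjusted p = 0.00257). In both X-linked genes every array of G-1 1 µM 72 h was below every array of the other groups at 72 h. At 24 h, COL4A6 spread widely within groups, with 2.95, 2.60, 3.35 and 3.30 in DMSO, 2.75, 2.76, 3.35 and 3.34 in G-1 IC50, and 2.71, 2.73, 3.27 and 3.27 in G-1 1 µM. At 24 h, COL4A4 passed at 1 µM against DMSO, with -0.62 ± 0.19 (adjusted p = 0.0215), and COL4A1 at 1 µM against the IC50 dose, with 0.51 ± 0.18 (adjusted p = 0.0367).

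**Figure D2:**
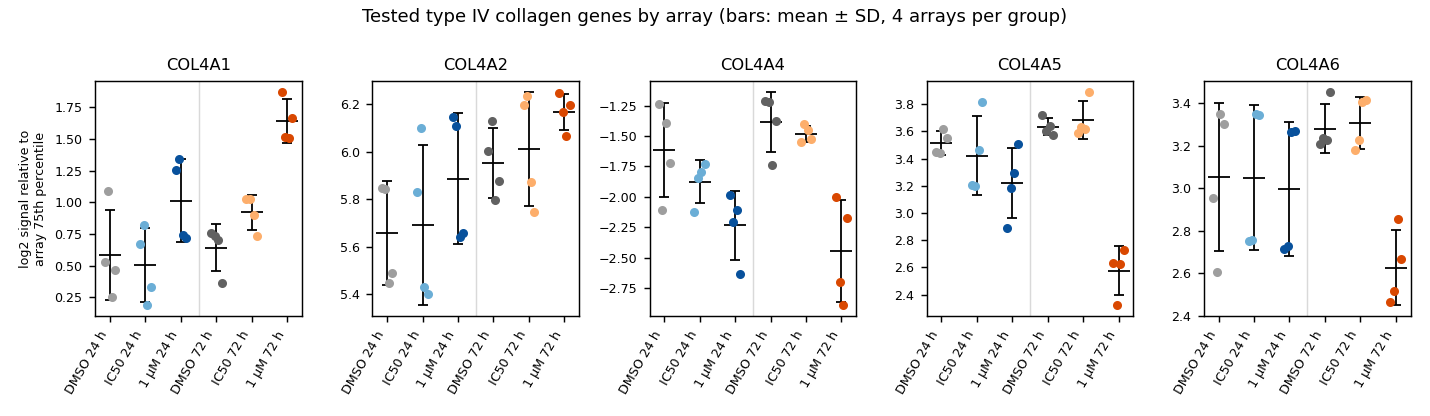
Log2 signal, scaled to each array's 75th percentile, of the 5 tested type IV collagens in the 6 groups (points are arrays, bars mean ± SD, 4 arrays per group; each panel has its own scale). At G-1 1 µM for 72 h, COL4A1 lies above all other groups, COL4A4 and COL4A5 lie below their DMSO 72 h arrays, and COL4A2 overlaps with DMSO.

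All 6 tested FACIT collagens fell at G-1 1 µM for 72 h, with a median of -0.93, where 32.6% of all genes fell by the adjusted p. Of the 6, 3 were called, against 8.66% of all genes called lower. COL14A1 (undulin, a collagen of fibril surfaces) had the largest fall. It read 3.70 ± 0.13 (mean ± SD, n = 4) in DMSO 72 h by its brighter probe, 3.98, 4.14, 3.99 and 4.32 in G-1 IC50 72 h, and 2.18, 1.68, 2.48 and 2.42 in G-1 1 µM 72 h. The IC50 arrays were thus the highest, and the 1 µM arrays lay below all others. Its 2 probes changed by -1.51 ± 0.14 and -1.53 ± 0.13 (adjusted p = 1.75e-08 and 5.53e-09). At 24 h, its brighter probe read 3.85, 3.64, 3.85 and 3.84 in DMSO and 3.41, 3.54, 3.84 and 3.76 in G-1 1 µM, which overlapped.

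COL12A1, a FACIT collagen of tendon and dense connective tissue, was called by its dimmer probe, which read 1.53, 1.62, 1.49 and 1.32 in DMSO 72 h and 0.19, 0.26, 0.44 and 0.35 in G-1 1 µM 72 h, a change of -1.18 ± 0.09 (adjusted p = 3.51e-10). Its brighter probe fell by 0.91 ± 0.10 (adjusted p = 7.43e-08). COL9A2 read 0.72, 0.86, 0.83 and 0.94 in DMSO 72 h and -0.35, 0.00, 0.01 and -0.40 in G-1 1 µM 72 h, a fall of 1.02 ± 0.10 (adjusted p = 1.5e-08). It missed the 2-fold limit without DMSO 72 h replicate 4 (-0.99) or G-1 1 µM 72 h replicate 1 (-0.97) or 4 (-0.95). COL16A1 fell by 0.96 ± 0.09 (adjusted p = 1.35e-08) by its brighter probe, with -0.11 ± 0.22 for the dimmer one (adjusted p = 0.666). COL21A1 and COL9A3 fell by 0.53 ± 0.09 and 0.44 ± 0.10 (adjusted p = 3.29e-05 and 0.000874). COL9A3 thus rose at the IC50 dose and fell at 1 µM, with 1 µM 72 h arrays between 1.90 and 2.10 below the IC50 arrays between 2.74 and 3.14.

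Of the short-chain network collagens, which form the hexagonal lattices of vessel walls and cornea, COL8A2 was called lower by both probes. Its brighter probe read between -2.26 and -1.65 in DMSO 72 h and -3.39, -2.98, -2.05 and -3.31 in G-1 1 µM 72 h, where 1 of 4 arrays was above background. These groups overlapped in 1 array, and the change was -1.03 ± 0.38 (adjusted p = 0.0209). The dimmer probe was above background on all 4 DMSO 72 h arrays and on none of G-1 1 µM 72 h. It was 1.41-fold lower with the dim arrays set as for COL17A1 (adjusted p = 0.000759 for the measured change). The brighter probe lost its call without DMSO 72 h replicate 3 (-0.95) or 4 (-0.96) or G-1 1 µM 72 h replicate 1 (-0.88) or 4 (-0.91), and the dimmer without G-1 1 µM 72 h replicate 2 (-0.94). COL8A1 fell by 0.25 ± 0.09 (adjusted p = 0.0134).

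COL6A1 and COL6A2 fell by 0.34 ± 0.11 and 0.85 ± 0.17 (adjusted p = 0.0124 and 0.000212). COL6A2 read 4.82, 4.84, 4.91 and 5.11 in DMSO 72 h and 3.52, 4.34, 4.35 and 4.07 in G-1 1 µM 72 h by its brighter probe, without overlap. COL18A1 read 5.89, 5.97, 5.74 and 5.97 in DMSO 72 h and 5.00, 5.01, 5.06 and 5.02 in G-1 1 µM 72 h, and fell by 0.87 ± 0.07 (adjusted p = 1.07e-09). COL7A1 rose by 0.61 ± 0.13 (adjusted p = 0.0005).

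**Figure D3:**
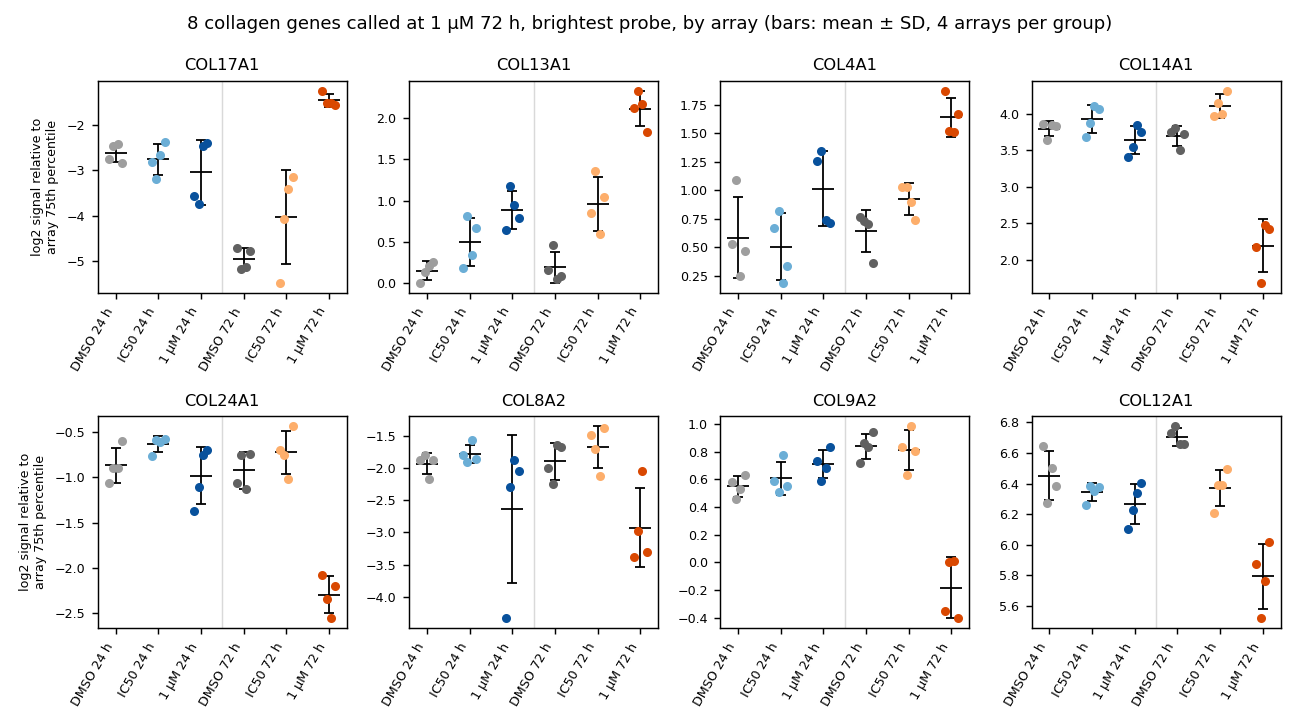
Log2 signal, scaled to each array's 75th percentile, of 8 collagens called at G-1 1 µM for 72 h, by their brightest tested probe, in the 6 groups (points are arrays, bars mean ± SD, 4 arrays per group; each panel has its own scale). COL17A1, COL13A1 and COL4A1 lie above all other groups at G-1 1 µM 72 h and COL14A1, COL24A1, COL9A2 and COL12A1 below them, while COL8A2 overlaps; COL17A1 points of DMSO 72 h and G-1 IC50 72 h are below background.

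Marker genes moved in the same comparison. Of the glioblastoma or astroglial markers, GFAP fell by 2.71 ± 0.31, S100B by 1.96 ± 0.20 and SOX2 by 0.84 ± 0.09. VIM fell by 0.25 ± 0.08, and the brighter probes of NES and CD44 by 0.32 ± 0.11 and 0.39 ± 0.09, while another CD44 probe rose by 0.90 ± 0.12. EGFR changed by -0.22 ± 0.07 by its brightest probe, and by -0.07 ± 0.09 and 0.35 ± 0.07 by others. The summed linear signal of the 7 was 1499 to 1736 in DMSO 72 h and 1071 to 1232 in G-1 1 µM 72 h. Of the fibroblast or mesenchymal markers, PDGFRA fell by 2.62 ± 0.18 and FAP by 1.83 ± 0.21. PDGFRB, ACTA2, FN1 and THY1 fell by 0.98, 0.64, 0.55 and 0.31. The sum of the 8 was 321 to 342 in DMSO 72 h and 194 to 210 in G-1 1 µM 72 h. The endothelial markers went both ways, as KDR rose by 1.71 ± 0.14 and VWF fell by 1.70 ± 0.15, with a sum over 5 of 1.90 to 2.14 and 3.77 to 4.07. Of the immune markers CD14 rose by 1.23 ± 0.11, with a sum over 3 of 0.469 to 0.578 and 1.03 to 1.26. A sum adds probes of unlike brightness and follows its brightest member. The part of these markers in the collagen values was not tested.

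The change at G-1 1 µM against DMSO was compared between 72 h and 24 h with an interaction term. By this test 8 collagens were called. COL13A1 (1.19 ± 0.23, adjusted p = 0.00049) and COL17A1 (3.89 ± 0.52) rose more, or from a change of the other sign, at 72 h. The p-value of COL17A1 is left out, since the gene entered the test only through G-1 1 µM 72 h. COL14A1 (-1.35 ± 0.20 and -1.68 ± 0.19), COL24A1 (-1.26 ± 0.21), COL9A2 (-1.18 ± 0.14), the dimmer probe of COL6A2 (-1.07 ± 0.17) and the dimmer probe of COL8A2 (-1.13 ± 0.41) moved lower. The dimmer probe of COL16A1 was higher (1.05 ± 0.31), against -0.51 ± 0.13 by its brighter probe (adjusted p = 0.0135 and 0.00414), so COL16A1 has no settled direction. Leaving out single arrays ended the calls of COL8A2 (-1.17 to -0.79, 8 arrays), COL16A1 (0.83 to 0.99, 5 arrays) and COL6A2 (-0.96 without DMSO 24 h replicate 2, -0.97 without G-1 1 µM 72 h replicate 1). Among all genes, 2.94% were called higher and 4.46% lower. With the adjusted p alone, 2 collagens were higher and 15 lower, against 19.2% and 18.9% of all genes, and the median was -0.51 against 0.00. The sizes for COL17A1 and the COL8A2 probe are no measured folds, since COL17A1 was below background in DMSO 72 h and the COL8A2 probe in both 1 µM groups.

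The 8 arrays of G-1 1 µM, which share 1 slide and session, gave a contrast of 72 h with 24 h that holds no slide difference but includes culture time. It was chosen after seeing the data. Of all 14235 genes, 826 were called in it, 281 higher and 545 lower, and the share by the adjusted p alone was not taken. In it COL14A1 was lower by 1.45 ± 0.14 and COL24A1 by 1.32 ± 0.15, as COL13A1 was higher by 1.23 ± 0.16 (adjusted p = 1.09e-07, 6.46e-07 and 3.99e-06). COL17A1, which entered the test only through the 72 h group, was higher by 1.58 ± 0.36. COL9A3 was lower by 1.14 ± 0.10, COL9A2 by 0.89 ± 0.10 and COL4A5 by 0.64 ± 0.13, and COL4A1 was higher by 0.63 ± 0.18, all with an adjusted p under 0.05. COL4A2 (0.28 ± 0.16), COL4A4 (-0.21 ± 0.19), COL4A6 (-0.37 ± 0.17), COL5A2, COL7A1, COL27A1 and COL8A2 did not pass.

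Culture time alone, DMSO 72 h against DMSO 24 h, gave 1 called collagen, against 0.183% of all genes. COL17A1 read -2.76, -2.48, -2.44 and -2.84 in DMSO 24 h, with 3 of 4 arrays above background. It was 1.56-fold lower at 72 h, with the undetected arrays set as above (adjusted p = 0.00165 for the measured change). With the adjusted p alone, COL12A1 was higher by 0.47 ± 0.09 by its dimmer probe, and COL21A1 and COL9A3 were lower by 0.50 ± 0.09 and 0.55 ± 0.10, besides COL17A1, against 1.36% of all genes higher and 2.42% lower. The level of COL9A3 was 3.00 ± 0.14 (SD, n = 4) in DMSO 24 h, 2.44 ± 0.15 in DMSO 72 h and 2.97 ± 0.17 in G-1 IC50 72 h. No fibrillar or type IV gene passed, and the 5 type IV genes had changes of 0.06 to 0.29.

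The 2 doses were also compared directly. At 24 h no collagen was called by limma, against 2.0% of all genes, and the methods' t-test called 0. An unadjusted p under 0.05 was found for 11 collagens, without a share of all genes to set beside it. At 72 h, 1 µM had COL13A1 (1.16 ± 0.16) and COL17A1 higher than the IC50 dose, against 5.56% of all genes. COL17A1 entered the test only through G-1 1 µM 72 h, so its call is no support for a difference. COL14A1 (-1.92 ± 0.14), COL24A1 (-1.58 ± 0.15), COL4A5 (-1.11 ± 0.13) and COL8A2 (-1.25 ± 0.38) were lower, against 8.1%. COL9A2 was lower (adjusted p = 2.46e-08) but missed the fold limit. In this comparison, with arrays scaled to the 50th percentile, the median of all named probes moved from 0.05 to -0.12 at 24 h and from 0.06 to -0.10 at 72 h. COL13A1 then missed the fold limit at 72 h, with 0.99.

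The genes that modify, fold, process and cross-link collagen were followed as a list of 33, of which 27 were tested. At the IC50 dose for 24 h none passed by limma, against 0.246% of all genes, and 1 had an unadjusted p under 0.05 (LOXL4). For 72 h LOXL4, a lysyl oxidase homologue, alone passed, with -0.53 ± 0.10 (adjusted p = 0.00772). Of all genes, 0.457% rose and 0.52% fell there by the adjusted p. At 1 µM for 24 h, P3H1, a prolyl 3-hydroxylase, rose, and COLGALT2 (a collagen galactosyltransferase), MIA3 (TANGO1, needed to load collagen for export) and LOXL4 (-0.38 ± 0.10, adjusted p = 0.0073) fell. By the same adjusted p, 22.7% of all genes rose and 12.6% fell. At 1 µM for 72 h, 7 rose and 11 fell, against 38.4% and 32.6% of all genes, with a median of -0.08 against 0.03. Of the list, 1 was called higher and 1 lower, against 6.03% and 8.66% of all genes.

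LOX, the lysyl oxidase that starts cross-linking, was called higher at 1 µM for 72 h and LOXL4 lower. LOX read -0.99, -0.86, -1.37 and -1.36 in DMSO 72 h and 0.70, 0.56, 0.01 and 0.19 in G-1 1 µM 72 h, above all other arrays, a rise of 1.51 ± 0.30 (adjusted p = 0.000182). LOXL4 read 2.85, 2.91, 2.46 and 2.69 in DMSO 72 h, 2.12, 2.44, 2.16 and 2.06 in G-1 IC50 72 h, and 1.67, 1.65, 1.75 and 1.67 in G-1 1 µM 72 h, a fall of 1.04 ± 0.10 (adjusted p = 1.84e-08) at 1 µM. Of the same family, LOXL1 (-0.89 ± 0.08) and LOXL3 (-0.74 ± 0.09) also fell, and LOXL2 changed by 0.07 ± 0.08 (adjusted p = 0.451).

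The hydroxylases and chaperones also split. PLOD2 (0.53 ± 0.16), the telopeptide lysyl hydroxylase, P4HA2 (0.45 ± 0.16), a prolyl 4-hydroxylase, P3H1 (0.33 ± 0.07), COLGALT1 (0.39 ± 0.07), FKBP14 (0.44 ± 0.08) and PCOLCE (0.33 ± 0.12), an enhancer of procollagen processing, rose. SERPINH1 (-0.32 ± 0.08), the collagen chaperone HSP47, FKBP10 (-0.64 ± 0.17), BMP1 (-0.55 ± 0.15), the procollagen C-proteinase, MIA3 (-0.27 ± 0.07), COLGALT2, P3H2, P3H3 and P3H4 fell. P4HA1, P4HB, PLOD1, PLOD3, PPIB, CRTAP, SEC23A and PCOLCE2 did not pass.

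Of 10 collagen receptors, 7 were tested, and at 1 µM for 72 h 4 fell and 1 rose, against 32.6% and 38.4% of all genes, with a median of -0.78 against 0.03. Of the 7, 3 were called lower, against 8.66% of all genes. ITGA11, the alpha 11 integrin that binds fibrillar collagen, read 0.29, 0.50, -0.08 and 0.61 in DMSO 72 h and -1.58 ± 0.09 (mean ± SD, n = 4) in G-1 1 µM 72 h, the lowest of all groups, a fall of 1.92 ± 0.17 (adjusted p = 9.68e-09). DDR1, a receptor tyrosine kinase for collagen, read 5.23, 5.14, 5.13 and 5.25 in DMSO 72 h and 4.02, 4.10, 4.28 and 4.25 in G-1 1 µM 72 h, and fell by 1.03 ± 0.11 (adjusted p = 8.41e-08). DDR2, its homologue, was called by its dimmer probe, 1.09-fold lower with the undetected arrays set as for COL17A1. Its brighter probe fell by 0.56 ± 0.14 (adjusted p = 0.00173). MRC2, an endocytic receptor that takes up collagen, fell by 0.78 ± 0.10 (adjusted p = 6.26e-07), and ITGA10 rose by 0.48 ± 0.19 (adjusted p = 0.0286). ITGB1, the shared beta 1 integrin, changed by -0.24 ± 0.14 (adjusted p = 0.139), and LAIR1 by -1.07 ± 0.56 (adjusted p = 0.102).

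In the change between durations at 1 µM, LOX (1.14 ± 0.42, adjusted p = 0.0452), ITGA11 (-1.39 ± 0.25, adjusted p = 0.000259) and the dimmer probe of DDR2 (-1.18 ± 0.42, adjusted p = 0.0376) were called, 1 gene higher and 2 lower, where 2.94% and 4.46% of all genes were. That DDR2 probe was above background on 1 of 4 arrays of G-1 1 µM 24 h and on 0 of 4 of G-1 1 µM 72 h, so its size is no measured fold. ITGA11 had risen with culture time in DMSO, by 0.74 ± 0.17 (adjusted p = 0.0268), and was already lower at 1 µM for 24 h, by 0.53 ± 0.17 (adjusted p = 0.028). At the IC50 dose no receptor passed by limma at either duration, with 1 unadjusted p under 0.05 in each.

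**Figure D4:**
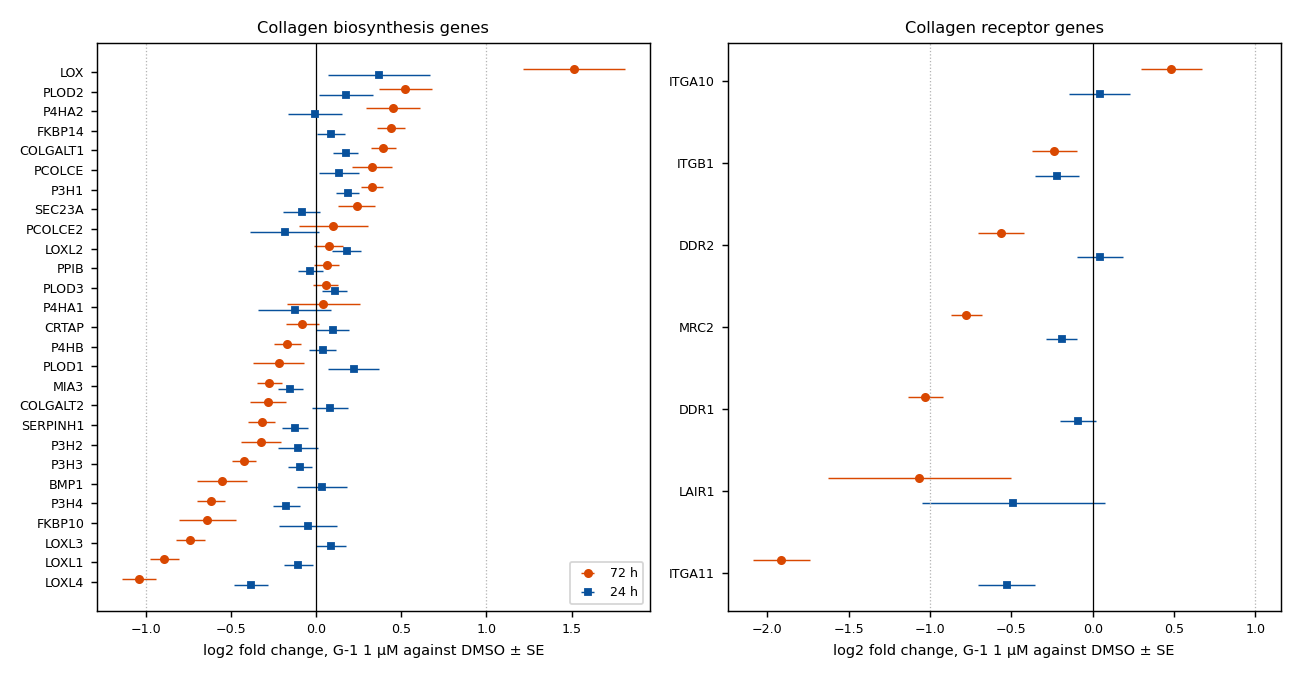
Log2 fold change of G-1 1 µM against DMSO (points, with SE) at 72 h (circles) and 24 h (squares) for the 27 tested collagen biosynthesis genes (left) and the 7 tested collagen receptors (right), by their brightest tested probe; dotted lines mark a 2-fold change. At 72 h the biosynthesis genes run from -1.04 (LOXL4) to 1.51 (LOX), and 6 of 7 receptors lie below 0.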

How the data were processed

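RNA of 24 U251 cultures in 6 groups of 4 was hybridised to 1-colour Agilent 8x60K arrays. The deposited scanner files hold the processed signal of each spot as an intensity, background-subtracted by Feature Extraction (12.1.1.1 per the file headers, 10.7.3.1 in the submitters' processing notes). A second deposited table, in log2 by the authors, was used as an alternative. It differed by a median of 0.00189 from the values used here after each probe's median over the arrays was subtracted from these. Control and outlier spots were left out, log2 intensities were scaled to each array's 75th percentile, and spots of one probe were averaged. Probes were named through RefSeq accessions: of 58118 kept probes, 35032 had a symbol. A probe entered the test if every array of some group was well above background (22970 probes, 14235 genes), with limma 3.58.1 in R 4.3.3, on all 24 arrays with 6 group means, and p-values were Benjamini-Hochberg adjusted. A gene was called with an adjusted p under 0.05 and a change over 2-fold in at least 1 probe. The number of arrays limits the precision. Where no array of a group was above background, each was set to its lowest signal well above background, or to its own reading if higher. The fold is then an estimate and no strict bound, since that signal is no detection limit of the probe. Named genes were all collagens called in a comparison, besides class and pathway members described by their values. Members, lists and tests were chosen with earlier results of these data known. Alternatives were the scaling, normexp (on the median spot signal and local background, since the mean signal was not used here), filter, probe, slide, replicate block and leaving out each array. The scripts were tested on simulated data.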

Additional observations from a re-analysis of the deposited data

Results flagged for a closer look

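Within groups of 4 arrays, 7 of 114 groups held an array whose gap to the nearest other array was a larger share of the group's range than Dixon's limit, and chance gives about 1 in 20. These were COL14A1 in DMSO 24 h (replicate 2, 0.922), COL18A1 in G-1 IC50 24 h (replicate 2, 0.939), COL24A1 in G-1 IC50 24 h (replicate 1, 0.868), COL4A1 in DMSO 72 h (replicate 4, 0.849), COL4A5 in G-1 IC50 72 h (replicate 4, 0.862), COL4A6 in DMSO 72 h (replicate 4, 0.902) and COL8A2 in G-1 1 µM 24 h (replicate 1, 0.83).

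The change at G-1 1 µM differed between 72 h and 24 h, by an interaction term in limma, for COL14A1 (-1.35 and -1.68 by its 2 probes), COL24A1 (-1.26), COL17A1 (3.89), COL6A2 (-1.07), COL8A2 (-1.13), COL16A1 (1.05), COL13A1 (1.19) and COL9A2 (-1.18), on the log2 scale. COL17A1 in DMSO 72 h and the COL8A2 probe in both 1 µM groups were below background on all arrays, so these 2 sizes are no measured folds.

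Signal also appeared in collagens that were not tested. COL15A1 was above background on 3 arrays of G-1 1 µM 72 h and on 0 of DMSO 72 h. At 24 h, COL10A1 was above background on 2 arrays with the IC50 dose and 1 with DMSO. At 72 h it was so on 1 array with the IC50 dose, 2 with 1 µM and 0 with DMSO.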

How the results depend on the processing

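The counts of called collagens were 0 and 0 (IC50 dose, 24 h and 72 h), 1 and 10 (1 µM), 0 and 6 (1 µM against the IC50 dose), 1 (culture time) and 8 (1 µM by duration). The 10, 6 and 8 include COL17A1, which entered the test only through G-1 1 µM 72 h. In the same order, 9, 19, 317, 2092, 284, 1945, 26 and 1053 of all 14235 tested genes were called. Without the fold limit they were 3 (IC50 dose, 72 h), 7 and 24 (1 µM), 4 (culture time) and 17 (by duration). Of all genes, 22.7% rose and 12.6% fell at 1 µM for 24 h, 38.4% and 32.6% for 72 h, and 19.2% and 18.9% by duration. For the IC50 dose at 72 h the shares were 0.457% and 0.52%, and for culture time 1.36% and 2.42%. The counts for 1 µM against the IC50 dose are given below with the replicate block. With normexp the counts of called collagens were 0 and 3 (1 µM), 3 (against the IC50 dose, 72 h), 0 (culture time) and 2 (by duration). Over all 14235 genes normexp called 40 and 807, 734, 5 and 340. With probes detected on each of the 24 arrays alone, the same comparisons gave 0 and 6, 3, 0 and 4 collagens. Of the 12708 genes with such probes, 110 and 1399, 1281, 8 and 685 were called. With no filter, 1 µM for 24 h gave 2 and 1 µM against the IC50 dose for 24 h gave 1, against 819 and 1279 of 24817 genes. With the 50th percentile, 1 µM against the IC50 dose gave 1 and 10, against 379 and 2095 of 14235 genes. With the brightest probe alone, 1 µM for 24 h gave 0 and the change by duration 5. Within the first slide, culture time gave 0 collagens and 0 of 14235 genes, with COL17A1 at -2.29 (adjusted p = 0.198). Leaving out 1 array at a time gave 0 to 0 and 0 to 1 (IC50 dose), 1 to 1 and 8 to 12 (1 µM), 0 to 1 and 6 to 8 (against the IC50 dose), 1 to 1 (culture time) and 6 to 8 (by duration). COL16A1 turned to -0.51 by its brighter probe. The cause of these changes was not tested.

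Of the values of named genes, 284 kept their direction and call under the other alternatives, 38 lost the call and 1 reversed; 19 of the losses came with normexp, which also starts from another signal column, so the effects of both choices cannot be told apart. The contrast within the third slide, chosen after seeing the data, lost the call for 4 of the values by duration.

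No source ties replicate numbers across groups. Of 60 same-numbered pairs, 33 had a correlation over 0.1 (-0.32 to 0.53, median 0.12 against -0.04 for other numbers), and 13 of 24 arrays correlated best with their own number. All 4 pairs were over 0.1 for 1 µM against DMSO and against the IC50 dose at 24 h, and in no other comparison of 2 groups. With the replicate block, the counts were 0, 0, 1, 10, 0, 6, 1 and 8, in the order given first. Of all 14235 genes, 12, 26, 317, 2094, 281, 1944, 37 and 1067 were called with it. On the adjusted p alone the block gave 0, 3, 12, 25, 9, 23, 4 and 19 collagens. The shares of all genes higher were 0.464%, 1.08%, 25.3%, 39.5%, 23.7%, 40.5%, 3.16% and 21.1%, in the same order. Those lower were 0.0562%, 1.17%, 14.9%, 33.5%, 12.3%, 32.1%, 4.31% and 21%. Probes near background limit the values of COL17A1, COL8A2, COL24A1, COL4A4 and the dimmer probe of COL16A1.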
